A study of Mus musculus with 96 samples.

Results

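H3K4me3 was compared between neuronal (NeuN+) and non-neuronal (NeuN-) nuclei of the wild-type (WT) mouse hippocampus. The comparison used 3 NeuN+ and 3 NeuN- chromatin immunoprecipitation (ChIP-seq) libraries, 6 of the 72 libraries with a column in the deposited tables and of the 96 samples with labels. The animals were male C57BL/6N mice aged 6 months that carried no altered allele and received no treatment, and the hippocampi of several animals were pooled for a sample. The other genotypes, used here only where named, were Mutyh-/-, Ogg1-/- and the double knockout (DKO), which lack 1 or both of these DNA glycosylases. Nuclei were stained for NeuN and sorted by fluorescence. NeuN- therefore holds every nucleus without NeuN, whichever non-neuronal type it came from. Each fraction has its own table of consensus peaks, built over the libraries of all 4 genotypes, with 12628 peaks for NeuN+ and 3270 for NeuN-. Members were the peaks of the 2 tables that overlap by 1 bp or more, together with the genes that have a promoter peak in only one table. Of the 15898 peaks of both tables, 3000 in each overlapped one to one as pairs, and 2891 pairs were annotated as promoter, within 2 kb of a start site, in both tables. These pairs are called shared peaks below.

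H3K4me3 is trimethylation of lysine 4 on histone H3 and sits around the start sites of genes that are transcribed or ready to be, most often in CpG-rich DNA. H3K27me3, laid down by Polycomb repressive complex 2 (PRC2), of which Suz12 is a subunit, marks silent genes, many of them developmental regulators that are active in another lineage. In the brain, promoters of general cellular genes carry H3K4me3 in most cell types, while genes for synapses, myelin or immune surveillance tend to carry it in the type that uses them. NeuN is the protein encoded by Rbfox3, an RNA-binding splicing regulator of neurons.

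The labels were checked with marker genes. Rbfox3 had 2 promoter peaks in the NeuN+ table and none in the NeuN- table, with 20, 21 and 23 reads in the 3 WT libraries at chr11:118908605-118909005 (GRCm38). Camk2a, a kinase of excitatory synapses, had 1 promoter peak, with 24, 26 and 25 reads, also in the NeuN+ table only. Olig2, a transcription factor of the oligodendrocyte lineage, and Gfap, an intermediate filament of astrocytes, had no H3K4me3 peak in either table, and neither did Sox10, Aqp4, Cx3cr1 or Cldn5. A peak in the NeuN+ table only was also the case for 73.2% of all genes with a promoter peak, so it says little about the label, and the defining glial and vascular markers were mostly missing from the NeuN- table. Oaf, which the study shows as a glial gene, had a promoter peak in both tables, with values given below. As the study picked Oaf on these samples, it is no independent check.

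The NeuN- libraries held far fewer reads in peaks, over fewer peaks. Total reads per library are not given here, so depth and enrichment cannot be told apart. Reads in peaks ranged from 236080 to 292279 in NeuN+ and from 40909 to 103840 in NeuN-. A single peak over repeats on chromosome 2 (97.0% masked bases) took 29.8% to 51.6% of the NeuN- reads, against 4.02% in NeuN+ replicate 2 and 0% in the other two. The median shared promoter held 22 to 29 reads in NeuN+ and 5 to 11 in NeuN-. Spearman correlations over shared promoter peaks were 0.353 to 0.429 among NeuN+ libraries and 0.115 to 0.149 among NeuN- libraries. Between NeuN+ and NeuN- libraries they were 0.113 to 0.187, so NeuN- libraries correlated no better with each other than with NeuN+ ones. These values are a description over peaks that share libraries and base composition. To compare fractions, each library was scaled so that its reads in shared promoter peaks summed to 49734.2, and the results of this scaling are called scaled reads.

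The promoter stretches printed next show the kinds of window compared: a gene marked in the NeuN+ table only, a gene marked in both, and both a CpG-poor and a CpG-rich promoter marked in the NeuN- table only. They are GRCm38 plus-strand sequence outside annotated exons, with each CG in capitals.
Rbfox3, chr11:118908705-118908904: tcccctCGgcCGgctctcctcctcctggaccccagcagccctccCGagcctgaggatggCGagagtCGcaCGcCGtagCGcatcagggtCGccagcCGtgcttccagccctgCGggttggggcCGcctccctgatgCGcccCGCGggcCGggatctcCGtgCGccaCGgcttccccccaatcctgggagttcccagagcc
Cplx2, chr13:54303042-54303241: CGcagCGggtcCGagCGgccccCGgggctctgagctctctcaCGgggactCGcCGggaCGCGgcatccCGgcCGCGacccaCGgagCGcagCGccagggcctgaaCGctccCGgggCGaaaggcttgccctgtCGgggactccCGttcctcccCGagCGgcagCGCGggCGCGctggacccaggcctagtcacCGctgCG
Sox8, chr17:25569826-25570025: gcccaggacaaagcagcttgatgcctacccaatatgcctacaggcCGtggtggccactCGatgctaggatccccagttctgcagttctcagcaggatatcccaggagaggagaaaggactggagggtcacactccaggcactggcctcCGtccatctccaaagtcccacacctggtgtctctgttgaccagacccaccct
Tcf7l2, chr19:55742628-55742775: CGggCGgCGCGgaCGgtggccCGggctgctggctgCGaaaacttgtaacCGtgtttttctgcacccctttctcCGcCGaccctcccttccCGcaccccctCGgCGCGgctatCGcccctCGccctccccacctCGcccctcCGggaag
The Rbfox3 stretch holds 19 CG in 200 bases, the Cplx2 stretch 29 in 200, the Sox8 stretch 3 in 200 and the Tcf7l2 stretch 18 in 148. Over the whole window in which reads were counted, the Rbfox3 peak held 42 CG, the NeuN+ Cplx2 peak 45, the Sox8 peak 6 and the Tcf7l2 peak 50.

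Most genes with a promoter peak had it in the NeuN+ table alone. Of 11277 genes with a promoter peak in at least 1 table, 2901 (25.7%) had one in both, 8259 (73.2%) in the NeuN+ table only and 117 (1.04%) in the NeuN- table only. Of the 8259, 8165 had a read in all 3 WT NeuN+ libraries. In the NeuN+ table, genes marked in both tables had a median of 17.5 scaled reads (16.9, 17.5 and 17.2 in the 3 libraries), and those marked there alone had 13.6 (13, 13.5 and 13). The level was thus higher for genes marked in both tables in each library, although the classes overlap, with interquartile ranges of 14.4 to 20.3 and 10.0 to 16.9. CpG content differed too: the median window held 43 CG for genes marked in both tables, 33 for genes marked in the NeuN+ table only and 32 for the 45 NeuN- genes described below, and windows with fewer than 10 CG made up 0.552%, 2.92% and 13.3%.

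How often a NeuN+ promoter peak had a NeuN- partner followed its level. With the peaks put in 10 groups of equal size by WT level, from lowest to highest, the share overlapping a NeuN- peak was 6.03%, 8.50%, 12.5%, 14.1%, 19.5%, 23.1%, 30.6%, 36.5%, 41.3% and 53.6%. Even in the most enriched group, many peaks had no partner in the NeuN- table. A gene listed in the NeuN+ table only therefore lacks a called NeuN- peak, which is not the same as lacking the mark, and the tables hold no NeuN- value at such a promoter. The part of depth in these counts was not tested.

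**Figure D1:**
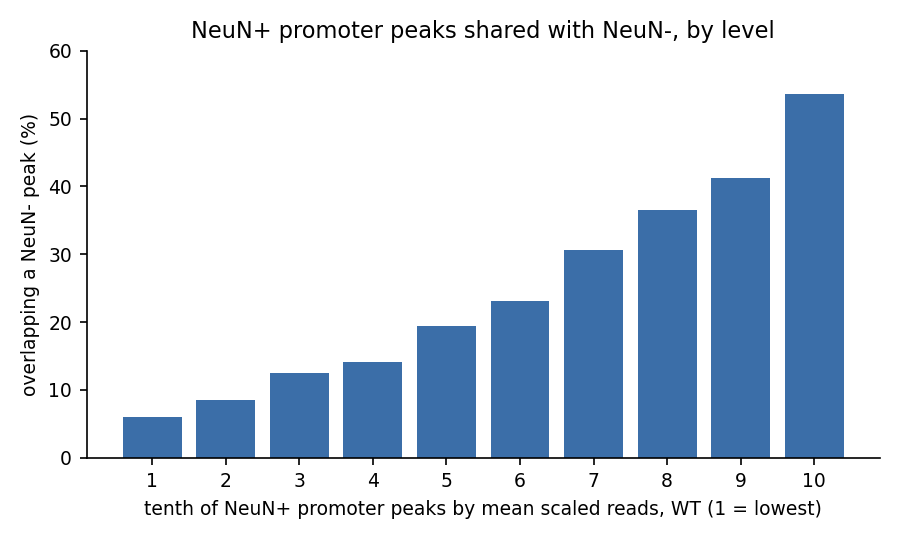
Share of NeuN+ promoter peaks (percent, y axis) that overlap a NeuN- peak, for 10 groups of equal size ordered by mean WT NeuN+ level in scaled reads (x axis). The bars climb from 6.03% in the lowest group to 53.6% in the highest.

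The genes of highest level marked in the NeuN+ table only were of mixed function. Hjurp, a chaperone of the centromeric histone, was far above the rest with 143, 101 and 151 reads (87.6 ± 6.61 scaled reads, SD, n = 3). The Hjurp window overlapped a NeuN- Suz12 peak, which holds for 3 of the 8259 genes (0.0363%). Whether this region is enriched with any antibody was not tested. Ago4, an Argonaute protein of small-RNA silencing, followed with 42, 42 and 51 reads. Edem1, which marks misfolded glycoproteins for degradation, had 48, 37 and 43 reads. The other genes among the leading 8 were Spopl, Creg2, 9330162012Rik, Nipa2 and Rpl22, none of which is on a neuronal list used here.

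Neuronal genes were grouped by role, and in 4 of the 5 neuronal lists most members carried a promoter peak in NeuN+. Over all 21900 protein-coding genes of RefSeq, 48.7% had an H3K4me3 promoter peak in the NeuN+ table and 13.2% in the NeuN- table. Among 18 genes of neuronal identity and cytoskeleton the shares were 88.9% and 11.1%, with 14 in the NeuN+ table only, 2 in both and 2 in neither. The identity genes marked in NeuN+ only included Tubb3, a neuronal tubulin, with 28, 21 and 34 reads and Thy1, a surface glycoprotein of projection neurons, with 26, 21 and 36 reads. Elavl3, an RNA-binding protein of neurons, and Mapt, which encodes tau, were the 2 marked in both.

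The vesicle-release list (18 genes) had 94.4% of members in the NeuN+ table and 11.1% in the NeuN- table. Vamp2, the vesicle protein of the fusion complex, had 36, 24 and 45 reads (23.1 ± 3.79 scaled reads, SD, n = 3). Bsn, a scaffold of the active zone, had 25, 28 and 41 reads, and Snap25, the membrane partner of Vamp2, had 20, 13 and 25. Only Syn2 and Cplx2, a vesicle phosphoprotein and a regulator of fusion, were marked in both tables.

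For 24 excitatory and postsynaptic genes the shares were 91.7% and 20.8%, with 17 genes in the NeuN+ table only and 5 in both. Grin1, the obligatory subunit of NMDA receptors, had 30, 24 and 47 reads (22.2 ± 4.91 scaled reads), and the Camk2a peak described above had 17.0 ± 3.18 scaled reads (SD, n = 3). The Camk2a window held 4 CG and still carried a level at the 67.9 percentile of NeuN+ promoter peaks. Homer1, a postsynaptic scaffold, and Camk2b, the partner subunit of Camk2a, were among those in both tables.

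Activity-induced early genes, switched on within minutes of synaptic input, all had a NeuN+ promoter peak (17 of 17, 100%), and 29.4% had a NeuN- one. Bdnf, a secreted growth factor, had 26, 31 and 39 reads. Npas4, a transcription factor particular to excited neurons, had 28, 22 and 28 reads, and Arc, which shapes synaptic receptor content, had 33, 10 and 19, so that Arc varied more between the WT libraries than Npas4. Jun, Egr1, Nr4a2, Fosl2 and Dusp1 were the 5 marked in both tables. The inhibitory list stood apart from the other neuronal lists, with 33.3% of 18 members in the NeuN+ table and 22.2% in the NeuN- table. Of its genes, 12 had a peak in neither, including Gad2, Sst and Pvalb, which mark classes of interneurons that are a minority of hippocampal neurons. Among list members with a promoter peak, the share in the NeuN+ table only was 87.5% for identity, 88.2% for vesicle-release and 77.3% for excitatory genes. It was 70.6% for early and 33.3% for inhibitory genes, against 73.2% over all genes with a promoter peak. The excitatory and early lists were thus near the share over all genes.

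**Figure D2:**
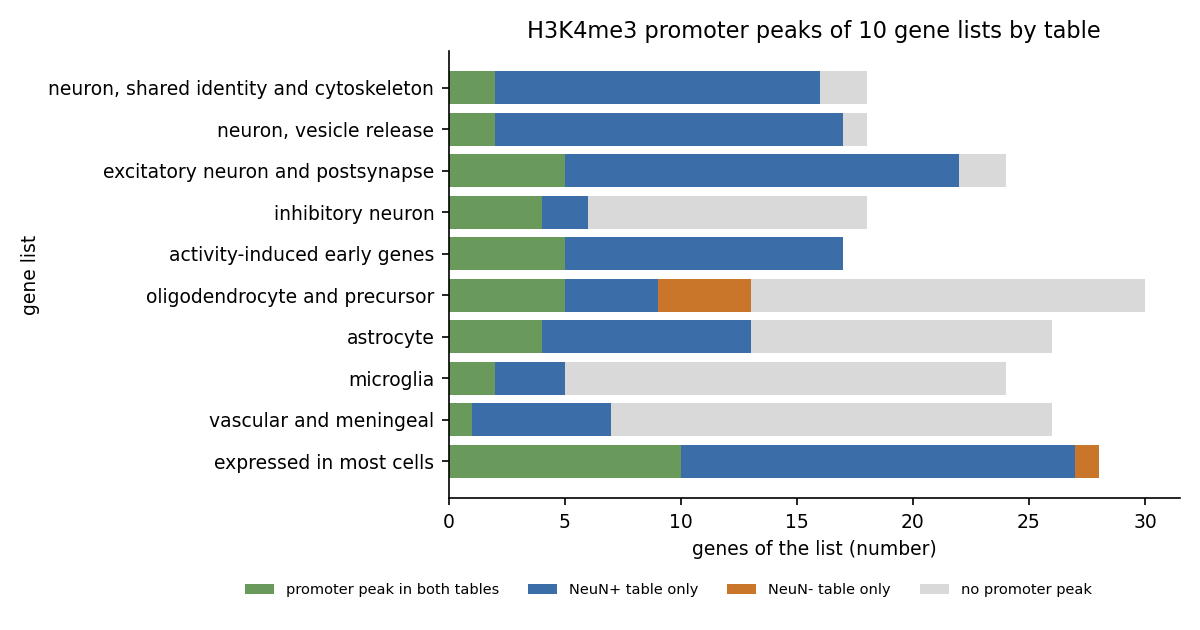
Number of genes (x axis) of each list with a promoter peak in both H3K4me3 tables, in the NeuN+ table only, in the NeuN- table only, or in neither (stacked bars). The vesicle-release list has 15 of 18 genes in the NeuN+ table only, and the oligodendrocyte list is the list with 4 genes in the NeuN- table only.

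Glial and vascular lists were mostly unmarked. Of 30 oligodendrocyte genes, 17 had no promoter peak, 5 had one in both tables, 4 in the NeuN+ table only and 4 in the NeuN- table only, so that 30% had a peak in each table. The list's 4 NeuN- only genes are 30.8% of its 13 members with a peak, against 1.04% over all genes with a peak. Lists and members were chosen with earlier results of these data known, so this contrast is only a description. Polr2b, on the list of genes expressed in most cells, was the other list member marked in the NeuN- table only. The Polr2b peak overlapped a NeuN+ peak annotated to its neighbour Noa1.

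Several myelin genes went the other way. Mbp, which encodes the main compacting protein of myelin, had a peak in the NeuN+ table only, with 31, 21 and 25 reads (17.2 ± 2.74 scaled reads, SD, n = 3). Myrf, the transcription factor of myelination, had 19, 12 and 16 reads. Cnp, a myelin phosphodiesterase, had 8, 11 and 16, and Cldn11, the tight-junction protein of myelin, had 10, 9 and 12. These 3 genes thus sat in the lower part of the NeuN+ table, and Mbp above its median. Whether glial nuclei in the NeuN+ fraction or the mark in neurons gave these reads was not tested. The defining markers Olig2, Sox10, Mog and Mag had no H3K4me3 peak in either table, so their absence from NeuN+ cannot decide it.

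Of 26 astrocyte genes, 50% had a NeuN+ and 15.4% a NeuN- promoter peak. Ttyh1, a chloride channel, had 45, 16 and 28 reads, and Slc1a3, a glutamate transporter of astrocytes, had 13, 16 and 13, both in the NeuN+ table only. Glul, the glutamine synthetase that recycles glutamate, Slc1a2, Slc4a4 and Fgfr3 were marked in both. Of 24 microglial genes, 20.8% had a NeuN+ and 8.33% a NeuN- peak, and 19 had neither. Those with a NeuN+ peak included Mef2c, a transcription factor also used by neurons. Of 26 vascular and meningeal genes, 26.9% and 3.85% had a peak, and 19 had neither. Among 28 genes expressed in most cells, the shares were 96.4% and 39.3%. Genes used by nearly every cell thus lacked a NeuN- peak in 17 of 28 cases, among them Actb, Eef2 and Hprt. Their NeuN+ share was above that of every neuronal list except the early genes.

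The 117 genes with a promoter peak in the NeuN- table only were of 2 kinds. For 72 of them the NeuN- peak overlapped a NeuN+ peak by 1 bp or more, in 71 cases annotated to another gene, so the gene name differs between the tables. Slc18a1, Txndc16, Naa50, Strn3 and Gm13427, among the leading 8 by level, were of this kind. Some of these windows share little DNA. The NeuN- window of Naa50 starts at chr16:44140029, and the NeuN+ window it overlaps, annotated to Atp6v1a, ends at 44140037. The other 45 overlapped no NeuN+ peak. Of these, 32 had a read in all 3 WT NeuN- libraries, 10 had a mean of at least 10 reads, and 3 lay over repeats, including the highest, the Mir101c peak with 13, 46 and 12 reads and 83.5% masked bases. In the NeuN- libraries of the knockouts, which are separate samples although they took part in calling the peaks, 32, 29 and 34 of the 45 had a read in all 3 libraries for Mutyh-/-, Ogg1-/- and DKO.

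Among these 45 were 4 of the oligodendrocyte list. Sox8, a transcription factor of the Sox10 family, had 16, 15 and 4 reads at chr17:25569742-25570142, which is 22.1 ± 10.3 scaled reads (SD, n = 3). Nkx6-2, a homeodomain factor of myelinating oligodendrocytes, had 3, 24 and 4 reads at chr7:139582192-139582592 (17.6 ± 15.1), so that replicate 2 carried most of them. Tcf7l2, a Wnt effector of differentiating oligodendrocytes, had 10, 18 and 2 reads at chr19:55742628-55743028 (17.4 ± 10.4). Olig1, a basic helix-loop-helix factor of the same lineage, had the lowest and most even level, with 5, 9 and 3 reads at chr16:91270391-91270791 (10.7 ± 2.10). All 4 are transcription factors, and all are supported by few reads, with a spread close to the mean in Nkx6-2.

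The following genes of the 45 were chosen after their values were seen. Nkx2-2os, antisense to the oligodendrocyte factor Nkx2-2, had 10, 17 and 4 reads. Pax6, a homeodomain factor of neural stem cells and astrocytes, had 6, 4 and 4, and Hepacam, an adhesion protein of astrocytes, had 0, 5 and 2, the least of the genes named. ChIP reads carry no strand, so reads at Nkx2-2os and at an overlapping gene cannot be told apart. Git1 and Chst14, of no glial list, were among the leading 8 with 15, 16 and 12 reads and 22, 22 and 7 reads. Hepacam, Chst14 and Mir101c also had a NeuN+ peak annotated to them outside promoters, so only their promoter peaks were in the NeuN- table alone. Of the 117 genes, 107 had no NeuN+ peak of any annotation.

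**Figure D3:**
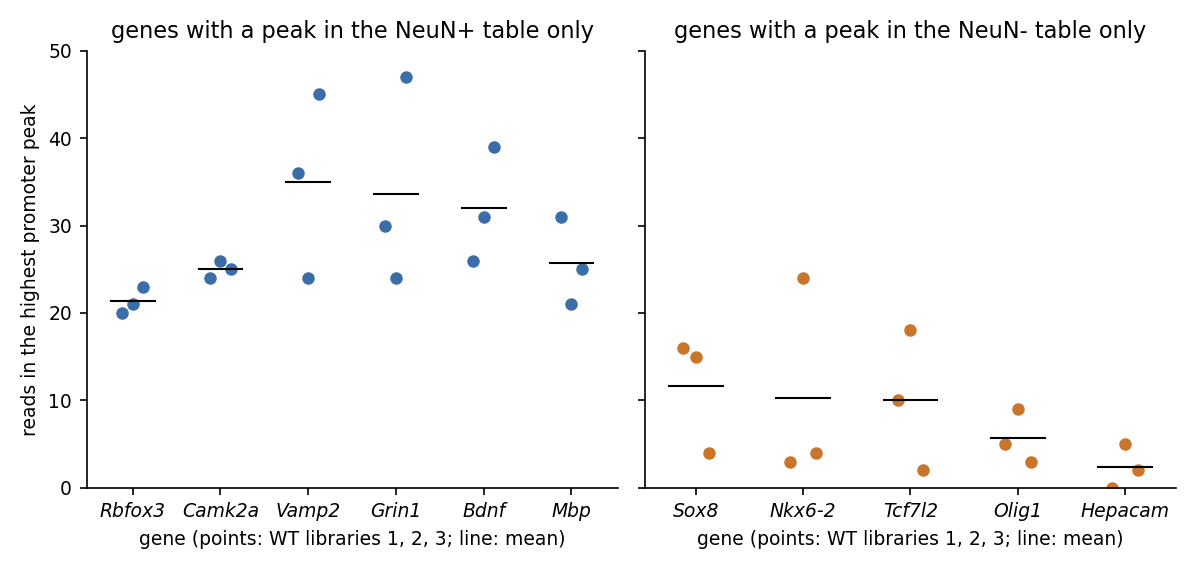
Reads per WT library (y axis, 0 to 50 reads) for genes with a promoter peak in the NeuN+ table only (left panel) and in the NeuN- table only (right panel). Points stand for libraries 1 to 3 and a line for their mean. Hepacam also had a NeuN+ peak outside promoters. The left genes lie between 20 and 47 reads and the right genes between 0 and 24. Reads in peaks per library differ between the panels, so levels are not comparable across them.

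Promoters of the 45 genes were also looked up in the H3K27me3 and Suz12 tables, measured with other antibodies. In NeuN+, 26.7% (12 of 45) had an H3K27me3 promoter peak and 26.7% (12) a Suz12 promoter peak, 16 had either and 8 both. For genes with H3K4me3 in both tables the shares were 2.41% and 1.59%, and for genes with it in the NeuN+ table only 3.50% and 1.68%. Both of these classes have a NeuN+ H3K4me3 promoter peak, which the 45 lack. Over protein-coding genes without that peak the shares were 5.31% and 1.85%. In NeuN-, 11.1% and 6.67% of the 45 had an H3K27me3 and a Suz12 promoter peak, against 2.00% and 0.517% and against 4.36% and 0.0605%. With a value above 0 required in all 3 WT libraries, the NeuN+ shares of the 45 were 22.2% and 24.4%. The NeuN- shares fell to 8.89% and 2.22%, against 1.17% and 0.310% and against 2.18% and 0.0484%. The 3 NeuN- Suz12 genes were Gsc, Mir101c and Mroh2a, of which only Mir101c remained. The H3K4me3 windows of Mir101c and Mroh2a held 83.5% and 64.6% masked bases. The H3K4me3 window itself overlapped a NeuN+ Suz12 peak in 10 of the 45 (22.2%) and a NeuN+ H3K27me3 peak in 5 (11.1%), against 0.965% and 0.689% of genes marked in both tables. These shares are descriptions of peak calls and carry no test.

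**Figure D4:**
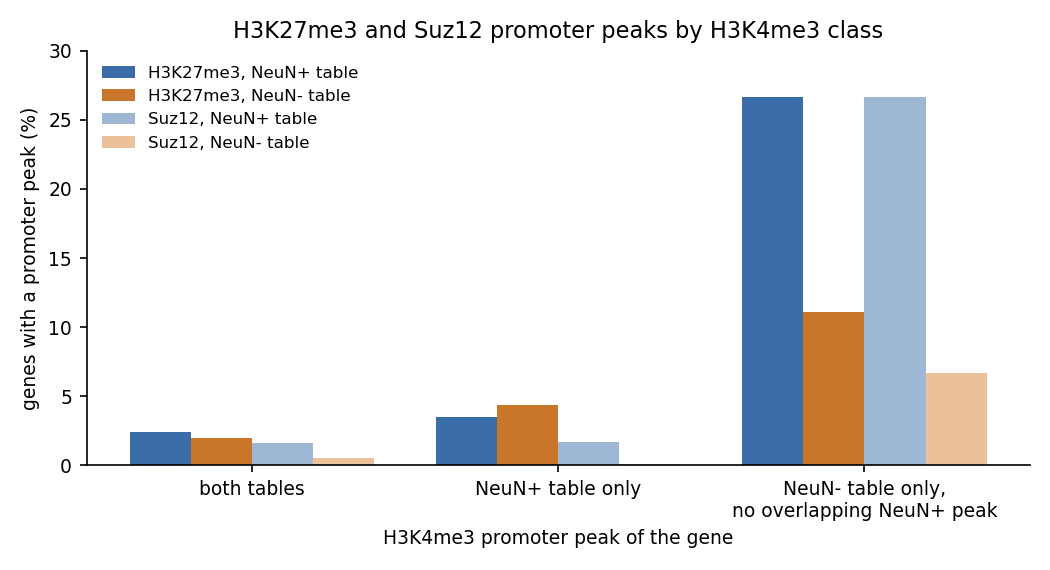
Share of genes (percent, y axis) with an H3K27me3 or a Suz12 promoter peak in each fraction, by class of H3K4me3 promoter peak (both tables, NeuN+ table only, NeuN- table only with no overlapping NeuN+ peak). The NeuN+ bars of the last class both stand at 26.7%, and all bars of the other classes are at or under 4.36%.

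Some, not all, oligodendrocyte regulators had Polycomb peaks in neuronal nuclei. Sox8, Nkx2-2 and Myrf had no H3K27me3 or Suz12 promoter peak in any table. At Nkx6-2, deposited normalised values of H3K27me3 in WT NeuN+ were 15.3, 15.5 and 13.8, and those of Suz12 were 8.05, 44.6 and 36.2. At Olig1, a Suz12 peak at chr16:91270257-91270657 overlapped the H3K4me3 window of NeuN- and had 2.68, 8.91 and 24.2 in WT NeuN+. Tcf7l2 likewise had a Suz12 peak over its NeuN- H3K4me3 window, with 2.68, 15.8 and 18.8, while its H3K27me3 peak lay at another, distant start site. Suz12 values spread widely between libraries, with the first library lowest at all 3 genes. Olig2, without H3K4me3 in either table, had H3K27me3 values of 11.0, 15.5 and 15.5 and Suz12 values of 17.4, 25.7 and 8.05 in NeuN+, and no peak of either mark in NeuN-. Sox10, its partner in the lineage, had H3K27me3 values of 8.76, 12.2 and 8.62.

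Over the lists, H3K27me3 was counted among members without an H3K4me3 promoter peak in the same fraction. In NeuN+, 8 of 21 such oligodendrocyte genes (38.1%) had an H3K27me3 promoter peak, 5 of them with a value in all 3 WT libraries, against 5.31% of protein-coding genes without H3K4me3 (596 of 11224). The 8 were Mag, Mal, Nkx6-2, Olig1, Olig2, Pdgfra, Sox10 and Tcf7l2. Inhibitory genes (4 of 12, 33.3%) and vascular genes (6 of 19, 31.6%) had similar shares, whereas microglial genes had 2 of 19 (10.5%) and astrocyte genes 1 of 13.

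In NeuN-, the excitatory list stood at 7 of 19 (36.8%) and the early genes at 4 of 12 (33.3%), against 3.53% (671 of 19001), with 2 genes of each in all 3 WT libraries. Vascular genes, a non-neuronal list, stood at 7 of 25 (28%), inhibitory genes at 4 of 14 (28.6%) and identity genes at 2 of 16 (12.5%), so that high shares did not follow the neuronal lists alone. Early genes with it included Egr3 (6.62, 3.32 and 4.61) and Egr4 (6.62, 4.15 and 9.23), both transcription factors. Grin2b, a subunit of NMDA receptors, had 2.65, 5.80 and 1.15. Rbfox3 had 13 H3K27me3 peaks annotated to it in the NeuN- table, mostly in introns and with a distal intergenic one among them, and none in the NeuN+ table. Its 2 promoter peaks had 1.32, 4.15 and 6.92 and 1.32, 0 and 3.46. Most of the 13 were at 0 in at least 1 WT library. No vesicle-release gene (0 of 16), no gene expressed in most cells (0 of 17) and 1 of 21 oligodendrocyte genes (4.76%) had the mark there. These NeuN- values are low and uneven, and Nefl and Egr2 were at 0 in all 3 WT libraries although peaks were listed from the other genotypes.

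At the shared peaks, fractions could be compared directly, on log2(scaled reads + 1), with limma and Benjamini-Hochberg adjustment over all 3000. P-values measure only the spread between these pooled samples. A positive difference means higher in NeuN+. At an adjusted p under 0.05, 0 peaks (0%) were higher in NeuN+ and 5 (0.167%) higher in NeuN-, against 96 (3.2%) and 110 (3.67%) at an unadjusted p under 0.05, while edgeR called 0 and 3 (0.1%). In 274 peaks (9.13%) all 3 NeuN+ libraries lay above all 3 NeuN- ones, and in 219 (7.3%) the reverse held. The median difference was 0.15 over all shared peaks, 0.16 over the 2891 promoters and -0.90 over the 109 others, of which 32 were positive. Scaling decides the direction counts: with the authors' own factors the median difference was 1.65 and the calls were 2231 higher in NeuN+ and 10 in NeuN-, and with scaling to reads in all shared peaks it was 1.22 with 246 and 6.

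**Figure D5:**
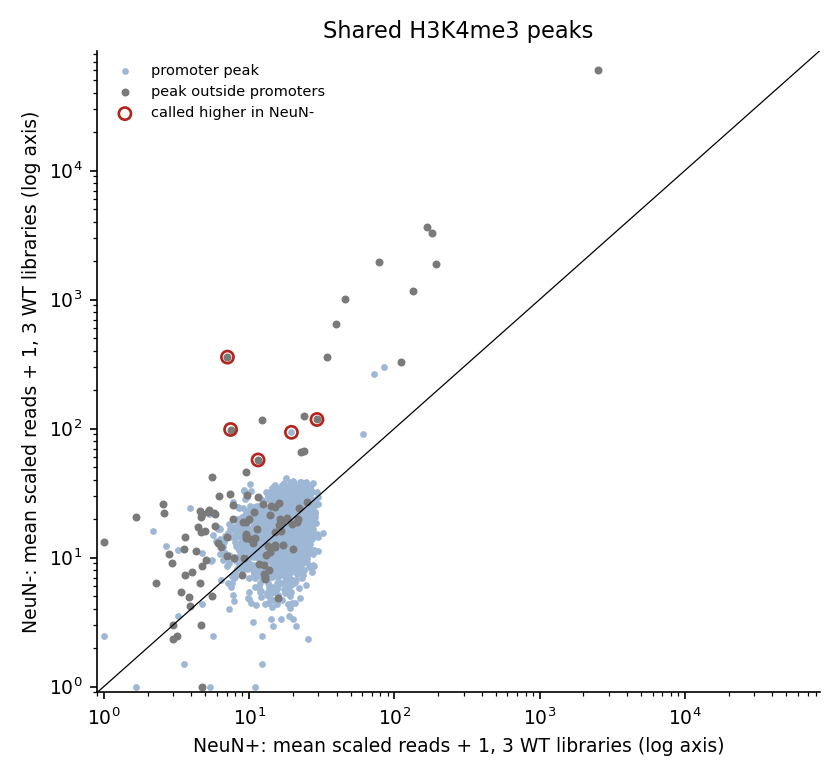
Mean scaled reads + 1 of the 3 WT NeuN+ libraries (x axis, log scale) against those of the 3 WT NeuN- libraries (y axis, log scale) for the 3000 shared peaks, with the 5 peaks past an adjusted p of 0.05 circled. The circled peaks lie on the NeuN- side, and most other peaks scatter around the line of equal level.

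Of the 5 called peaks, 1 was at a promoter (0.0346% of shared promoters) and 4 were outside (3.67%). Zc3h7a, which encodes a zinc-finger protein that binds RNA, had 35, 25 and 22 reads in NeuN+ and 52, 59 and 29 in NeuN- at chr16:11143903-11144303, between 1 and 2 kb from its start. Scaled reads were 18.6 ± 5.02 and 92.5 ± 11.5 (SD, n = 3 each), with no overlap. The log2 difference was -2.28 ± 0.26 (SE, limma adjusted p = 0.0135). The Zc3h7a call was lost without any one NeuN- library (difference -2.34 to -2.19, limma adjusted p 0.0904 to 0.20), where the difference kept its size, and was also lost with the authors' factors (-0.69, adjusted p 0.127) and with scaling to all shared peaks (-1.14, adjusted p 0.0621). Over all peaks, the 5 calls became 2 without NeuN+ replicate 1, 12 without NeuN+ replicate 2, 6 without NeuN+ replicate 3 and 0 without any one of the NeuN- libraries.

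The 4 outside promoters, named here after their values were seen, were a Filip1l intron (10.5 ± 4.67 against 56.1 ± 14.0 scaled reads, difference -2.37 ± 0.37), a distal peak nearest Pex2 (28.3 ± 8.61 against 116.6 ± 19.0, difference -2.04 ± 0.30) and 2 wholly masked peaks nearest Mir101c on chromosome 9. The Mir101c peaks had 0, 23 and 0 reads against 77, 313 and 155, and 2, 19 and 5 against 30, 67 and 45. The reads of NeuN+ replicate 2 were the highest of NeuN+ at both Mir101c peaks, as at the chromosome 2 repeat. All 5 called peaks overlapped a Suz12 peak in both fractions, and 4 overlapped a peak in all 4 H3K27me3 and Suz12 tables, which holds for 38 of the 3000 (1.27%). Of those 38, 37 had a negative difference, with a median of -2.06. Without repeat peaks 1 call remained in the limma fit of 2968 peaks, Zc3h7a (-2.28, adjusted p 0.0179), while Filip1l (-2.37, adjusted p 0.0781) and Pex2 (-2.04, adjusted p 0.0897) kept their difference and missed the threshold. The part of regions enriched with any antibody was not tested.

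No list member was called in either direction (0% and 0.167% over all shared peaks). Homer1 had 34, 35 and 42 reads against 2, 8 and 6, a difference of 1.28 ± 0.51 (SE) with no overlap between scaled libraries (limma adjusted p = 0.692). Nr4a2, an early-gene nuclear receptor, had 21, 33 and 41 against 0, 12 and 8 (1.49 ± 1.07). Glul had 40, 25 and 36 against 6, 8 and 5 (0.75 ± 0.35), a positive value at an astrocyte gene. Among these, the scaled groups of Homer1 and Glul were apart and those of Nr4a2 overlapped. In Mutyh-/-, Ogg1-/- and DKO the difference was -0.02, -0.06 and 0.43 at Homer1. It was -0.75, -0.61 and -0.16 at Nr4a2, and 0.05, 0.18 and 0.83 at Glul.

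Erbb4, the neuregulin receptor of interneurons, had 14, 16 and 26 against 10, 19 and 13, a difference of -1.14 ± 0.37 with no overlap (limma adjusted p = 0.613). At Erbb4 the knockouts gave -0.22, -0.09 and -0.69 for Mutyh-/-, Ogg1-/- and DKO. Lyn, a kinase of myeloid cells, had 17, 0 and 6 against 3, 5 and 8 reads (-1.57), so that NeuN+ replicate 1 lay apart. Syn2 had 41, 28 and 32 against 6, 27 and 5 (0.20 ± 0.42), and NeuN- replicate 2 held most of its NeuN- reads. Oaf had 11, 9 and 18 against 12, 11 and 4, scaled 8.33 ± 2.02 and 17.4 ± 6.38, a difference of -0.95 ± 0.56 with groups apart (limma adjusted p = 0.692). The values of Oaf and Erbb4 turned positive with the authors' factors, at 0.54 and 0.41. Oaf also had an H3K27me3 peak in the NeuN+ table.

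By list, the median difference of shared promoters was 0.41 for excitatory (5 peaks), 0.81 for early (4), 0.34 for vesicle-release (2) and 0.16 for identity genes (2), against 0.16 over all promoters. It was 0.37 for oligodendrocyte (5), 0.75 for astrocyte (3), -0.72 for inhibitory (4), -1.37 for microglial (2), -0.28 for vascular (1) and -0.05 for genes expressed in most cells (10). Each median rests on 10 peaks or fewer, and no difference between lists was tested.

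Some promoters had large differences that were not called, named here after their values were seen. Clasp1, a microtubule-binding protein, had 40, 30 and 40 reads in NeuN+ and 2, 0 and 0 in NeuN-, a difference of 3.89 ± 0.99 (limma adjusted p = 0.427). The Clasp1 windows of the 2 tables overlap by only 72 bp, so mostly different DNA was counted, and the knockouts gave 1.59, 0.31 and 0.35 for Mutyh-/-, Ogg1-/- and DKO. Hdlbp, a lipoprotein-binding RNA-binding protein, had 13, 18 and 12 against 0 in every NeuN- library, at least 4.86-fold higher in NeuN+ with a floor of 3 reads over the group. Both genes were chosen among promoters with groups apart and an unadjusted limma p under 0.05, so their separation is no further support.

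The same comparison in the knockouts used libraries that the WT test did not. At an adjusted p under 0.05 it called 0 peaks in Mutyh-/-, 13 in Ogg1-/- (all higher in NeuN-) and 1 in DKO, and all 5 WT peaks had the same sign with an unadjusted p under 0.05 in each knockout. Of the 96 peaks higher in WT NeuN+ at an unadjusted p under 0.05, 71.9%, 72.9% and 70.8% were positive in Mutyh-/-, Ogg1-/- and DKO, and of the 110 higher in NeuN-, 65.5%, 56.4% and 62.7% were negative. Over all 3000 the same sign was seen in 56.7%, 56.6% and 56.9%. That share pools both directions, and the median difference over all shared peaks was 0.13, 0.11 and 0.12 in the knockouts. Positive signs were thus the more common ones, and the pooled share is no matched reference for either direction. No interaction of genotype and fraction passed an adjusted p under 0.05 by limma (141, 134 and 160 at an unadjusted p under 0.05, smallest adjusted p 0.173 to 0.895), so a difference particular to WT was not shown.

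With the difference averaged over the 4 genotypes in a fit of 24 libraries, an alternative chosen after seeing the data, 24 peaks (0.8%) were higher in NeuN+, all at promoters (0.83% of them), and 37 (1.23%) in NeuN-, 12 of them at promoters (0.415%) and 25 among the 109 outside promoters (22.9%). Of the 24, 16 had windows that overlap by less than 200 bp in the 2 tables and 8 were annotated to different genes, against 498 and 83 of all 3000, so that partly different DNA was counted. Among the 24, named after their values were seen, Dnajb1, a co-chaperone of the heat-shock response, had 2.98 over the genotypes (limma adjusted p = 1.13e-05). Its WT value was 1.04, with 22, 22 and 23 reads against 3, 6 and 2 in windows that overlap by 62 bp, the NeuN- one annotated to Tecr. Hs2st1, a heparan sulfate sulfotransferase, had 2.65 (adjusted p 0.000807 by limma), with 40, 15 and 37 WT reads against 0, 2 and 1 in windows that overlap by 104 bp. Gid8, a ubiquitin-ligase subunit, had 2.45 (limma adjusted p = 0.00129), with 23, 22 and 19 against 0, 6 and 2 in windows that overlap by 118 bp, the NeuN- one annotated to Dido1. At all 3 genes the scaled WT groups did not overlap, as in 9.13% of all shared peaks in this direction. The WT libraries are part of the fit from which the genes were chosen, so this is no separate support. Ap3m1, also among the 24, had 2.52 over the genotypes but 0.18 in WT, with groups that overlapped.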

How the data were processed

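H3K4me3 ChIP-seq of sorted hippocampal nuclei was taken from the deposited tables. Reads were single-end; the authors mapped them with Bowtie2 (2.3.5.1 per the submitters' processing notes) to GRCm38, called peaks with epic2, kept peaks found in several replicates, counted reads with DiffBind (3.10.1) and annotated peaks with ChIPseeker (1.36). Duplicate, blacklist and input handling is not given in the sources used here. What the authors deposited is a signal: the read number of a peak over a library-wide factor. Whole reads were recovered: 100% of values came out whole within 0.001 reads. The deposited windows are 401 bp wide, a counting window and not the extent of the mark.

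The deposited values are not raw counts, a case for which limma had been planned, and it was kept although whole reads could be recovered. The shared peaks were tested with limma 3.58.1 (limma-trend, R 4.3.3) on log2(scaled reads + 1), with fraction as the only term. The test used 6 WT libraries, with Benjamini-Hochberg adjustment over 3000 peaks. Its log2 scale understates changes of low peaks. For each peak it takes the same spread in both fractions, although the NeuN- libraries held fewer reads. The study states no test between fractions. edgeR 4.0.16 and DESeq2 1.42.0 on the recovered reads were alternatives, among others of scaling, pseudocount, filter, overlap and samples. Genes with a peak in only one table were described from the authors' annotation, without a test. H3K27me3 and Suz12 values are signal as deposited by the authors. The scripts were tested on simulated data. Sequence was read from GRCm38 and exons from GENCODE, and the 21900 protein-coding genes are those of RefSeq. Scaled levels are mean ± SD over 3 libraries, and the 5 to 11 reads of the median NeuN- promoter limit the precision.

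Genes were named by a rule: Rbfox3, Camk2a, Olig2, Gfap and Oaf; promoters that passed the test with groups apart; for each list, members by difference or level; and up to 8 genes per table by level. Members and lists were chosen with earlier results of these data known.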

Additional observations from a re-analysis of the deposited data

How the results depend on the processing

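The NeuN- libraries held few reads per promoter, and the calls depended on the processing. The part of depth in the low number of calls was not tested. The 0 calls higher in NeuN+ became 2231 with the authors' factors, 246 with scaling to all shared peaks, 1 with DESeq2, 5 with 24 libraries in one fit and 24 over the mean of 4 genotypes, the last chosen after seeing the data; they were 0 in each other setting run. The 5 calls higher in NeuN- became 10 with the authors' factors, 1 and 9 with pseudocounts of 0.5 and 5, 3 with edgeR, 21 with DESeq2, 11 with voom, 1 with robust empirical Bayes, 1 with promoter peaks only, 1 without repeat peaks, 8 with 24 libraries in one fit and 37 over the 4 genotypes. Fewer peaks were tested among promoters and without repeats, and for the other settings the cause was not tested. TMM factors, scaling to all reads, scaling to all shared peaks, a filter of 10 reads and an overlap of at least 200 bp gave 4 to 6. Leaving out 1 library gave 0 to 12. Same-numbered samples showed little shared deviation (r = 0.0429, 0.0266 and -0.0279). The libraries hold too few reads per peak for this to show that the samples are unpaired. Both fractions may come from the same pools, which the labels do not state. The numbers were therefore not used for pairing. A replicate block gave 11 calls higher in NeuN- and 0 in NeuN+. The 117 genes in the NeuN- table only became 45 when any overlapping NeuN+ peak counted and 31 with a mean of at least 10 reads, and lay between 93 and 125 otherwise (125 without NeuN+ replicate 2, also chosen after seeing the data); the NeuN+ count was 8175 to 9574.

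Over the named shared peaks, 541 repeats kept direction and side of the threshold, 20 passed it newly, 37 no longer passed it and 27 reversed, all at peaks that were not called. With the authors' factors these were Oaf (0.54), Mapt (1.25), Prox1 (0.60), Erbb4 (0.41), Maf (0.47), Sall1 (0.23), Ets1 (1.20) and Eef1a1 (0.99). With scaling to all shared peaks they were Oaf (0.12), Mapt (0.81), Prox1 (0.20), Maf (0.0587), Ets1 (0.78) and Eef1a1 (0.55), and with scaling to all reads Cplx2 (-0.0104) and Syn2 (-0.28). Syn2 was also negative with edgeR (-0.0783), DESeq2 (-0.0522) and voom (-0.26). Over the 4 genotypes Prox1 was 0.56, Ets1 0.43, Tspan2 -0.12 and Ugt8a -0.18. Leaving out 1 library gave -0.19 to 1.16 for Elavl3, -0.11 to 0.70 for Syn2, -0.35 to 2.05 for Tspan2 and -0.65 to 0.0685 for Ets1. The cause of these reversals was not tested.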
